A study of Mus musculus with 31 samples.

Results

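The CCN genes encode a small family of secreted proteins that act in the extracellular matrix, and they were followed here in cultured cardiac fibroblasts. The members were taken by symbol as Cyr61 (also called Ccn1), Ctgf (Ccn2), Nov (Ccn3), Wisp1 (Ccn4) and Wisp2 (Ccn5), which made 5 of the 24421 genes in the count table, and all 5 passed the filter on low counts. Wisp3 (Ccn6), the remaining gene of the family, had 0 to 3 reads per library and was not analysed further. All cells were primary heart fibroblasts of C57Bl/6 mice aged 8 to 12 weeks, with no genetic change and no added agent named in the labels. Expression was measured by RNA sequencing in 29 libraries of 10 groups. The arrangements were 3D-2D-3D, 3D-2D-2D, 3D-2D, 3D and 2D, with a further pair of groups named 3D-5days and 2D-5days, and flat cultures named 2D-0.5kPa, 2D-8kPa and also 2D-64kPa. Each group held 3 libraries except 3D-2D, which held 2. A flat culture is written 2D and a three-dimensional one 3D, and a name with several arrangements, such as 3D-2D-3D, was taken to give their order in time. The 5-day groups name a time of 5 days, the other arrangements name none, and the kPa groups name the stiffness of the layer under a 2D culture. The sources used here do not give the time in each arrangement, the 3D material, the sex of the mice or how many mice went into a library.

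CCN proteins are matricellular: they are secreted, stay close to the cell, and bind integrins, heparan sulfate proteoglycans and growth factors. Cyr61 and Ctgf are early-response genes and textbook targets of YAP and TAZ, co-activators that respond to mechanical cues and bind DNA through TEAD factors, and Ctgf is also induced by TGF-beta and is widely used as a readout of fibrosis. Nov has been described as opposing Ctgf in several cell types, Wisp1 was found as a gene induced by Wnt1 and stimulates fibroblast growth and matrix production, and Wisp2 lacks the C-terminal module that the other members carry.

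On mouse build mm10 (GRCm38.p6 in RefSeq), Cyr61 lies on chromosome 3 from 145646971 to 145649985, Ctgf on chromosome 10 from 24595442 to 24598683 and Wisp2 on chromosome 2 from 163820752 to 163833146. Nov, from 54745910 to 54753762, and Wisp1, from 66891369 to 66923201, share chromosome 15. Ctgf overlaps 1 other RefSeq gene, the long noncoding RNA Gm15270, and the sources do not give the strand setting of the counting, so reads of the overlap cannot be assigned between them. The other 4 members overlap no other RefSeq gene. Of the 5 members, 1 was matched in the RefSeq promoter table, Cyr61, which was also the member with the widest range of group means, and its promoter is shown for that reason. The RefSeq window, chr3:145649936-145650235 on the minus strand of GRCm38.p6, holds 250 bases before the gene start and 50 after it. The sequence is written 5′ to 3′, and capitals mark the TEAD motif and the TATA box:

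Cyr61: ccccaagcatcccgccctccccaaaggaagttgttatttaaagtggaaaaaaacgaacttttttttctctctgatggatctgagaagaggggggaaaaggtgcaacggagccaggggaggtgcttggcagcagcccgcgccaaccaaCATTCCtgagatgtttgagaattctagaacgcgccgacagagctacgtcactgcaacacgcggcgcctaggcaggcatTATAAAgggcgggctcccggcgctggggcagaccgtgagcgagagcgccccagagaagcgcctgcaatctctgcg

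The TEAD letters GGAATG occur once, on the strand opposite to the gene (read as CATTCC), starting at base -103 relative to the gene start. The TATA box TATAAA starts at base -25. The SMAD letters CAGAC occur once, from base 4 of the transcript. The AP-1 letters TGANTCA and the CArG box, the letters bound by SRF, do not occur in this window. Both strands were searched, and no matches overlap. Among 32851 RefSeq promoter windows of the same length, the TEAD letters occur in 14.7%, TATAAA in 13.6%, CAGAC in 49.6%, TGANTCA in 7.81% and the CArG box in 1.63%. A match of letters is a description, not evidence of binding.

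The libraries of a group were not all alike, and this touches every comparison below. Xist was read without more than a trace of Y-linked genes in replicates 1 and 2 of the 3D-2D-3D, 3D-2D, 3D and 2D groups. Both kinds of reads were present in replicate 3 of 3D-2D-3D, 3D and 2D, in every 3D-2D-2D library and in the 5-day libraries. The kPa libraries had Y-linked reads and between 1 and 7 of Xist. Since no source states that replicates were separate cultures, p-values cover the spread between these libraries alone, and it may be technical. Gene counts per library summed to between 8509987 and 29909400. The summed level of 10 fibroblast markers was between 11840 and 71800 CPM (reads scaled to library size with TMM factors) over the 10 groups, with none at 0. The 11 macrophage markers, by contrast, summed to 7631, 5371 and 200.2 CPM in 3D replicates 1, 2 and 3, against 1040, 1132 and 1362 CPM in 2D. They summed to between 2969 and 10930 CPM in 3D-5days, against 676 to 2727 CPM in 2D-5days, to between 209.7 and 228 CPM in 3D-2D-3D and to between 429 and 436 CPM in 3D-2D-2D, and none was at 0 in any group. In such bulk libraries, fewer cells of a type and less RNA per cell cannot be told apart.

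**Figure D1:**
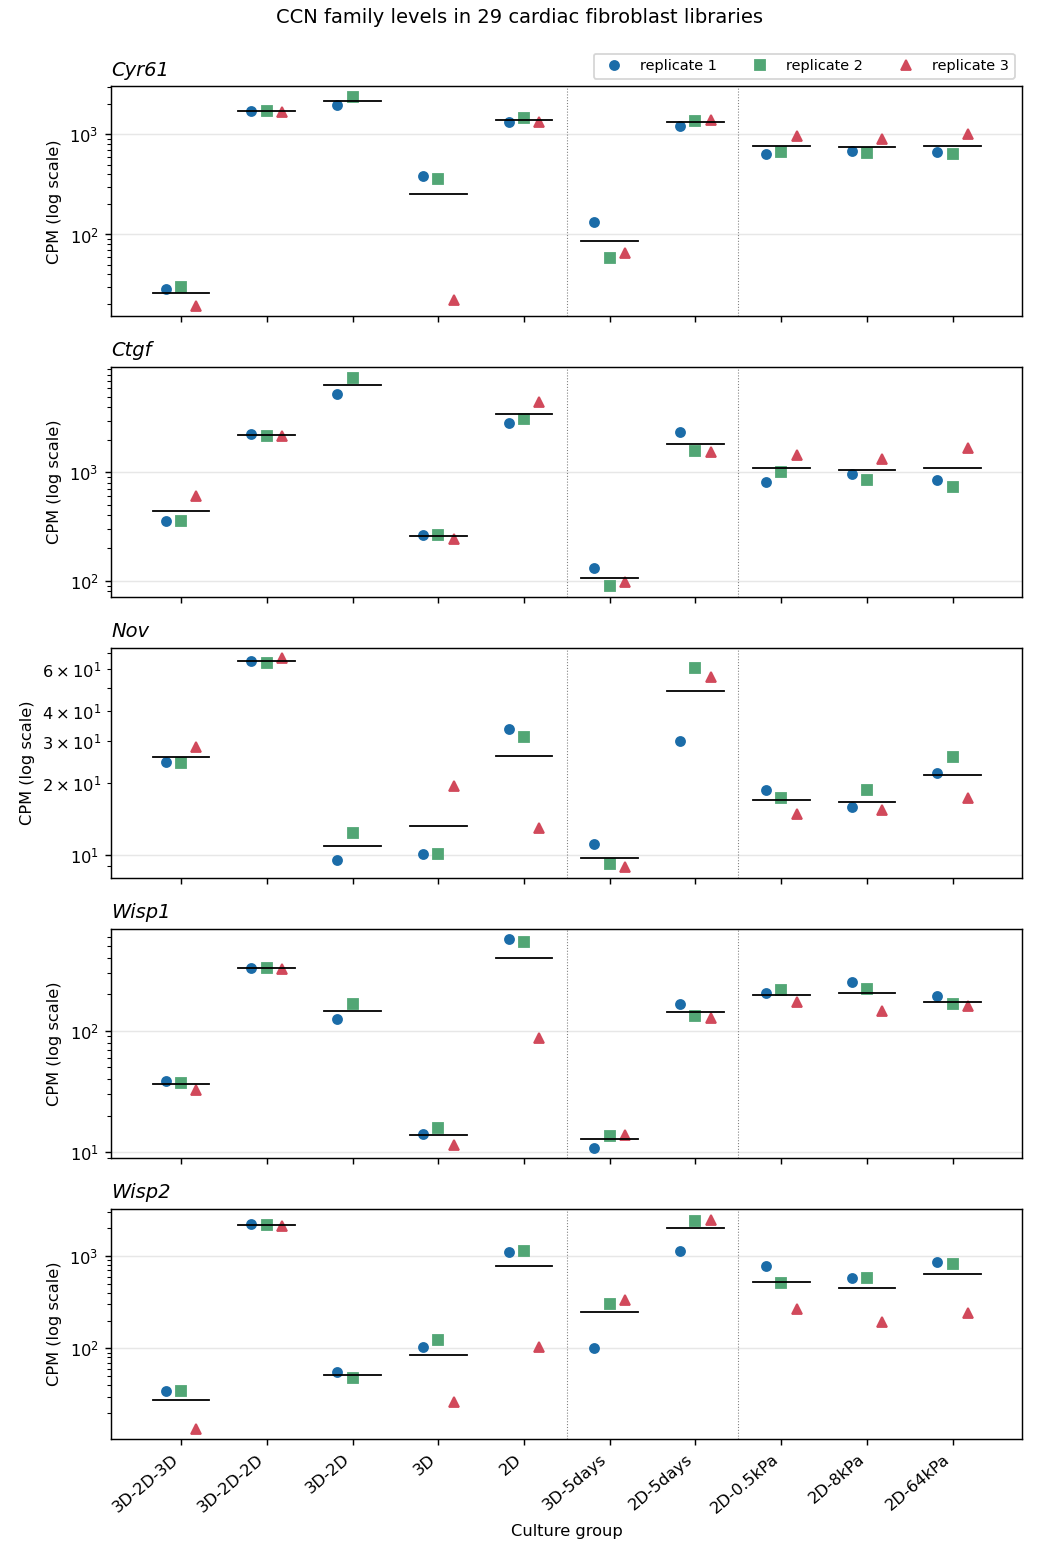
Level of each CCN gene in each of 29 libraries, in CPM on a log axis, by culture group; symbols mark the replicate number and bars the group mean. Cyr61 and Ctgf are high in 3D-2D, Wisp2 and Nov in 3D-2D-2D, and in 3D the third replicate stands below replicates 1 and 2 for Cyr61 and Wisp2 and above them for Nov.

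Each member was spread over a wide range of group means, and the groups at the top differed between members. Cyr61 was highest in 3D-2D, at 2175 CPM (SD 277, n = 2), and lowest in 3D-2D-3D, at 25.9 CPM (SD 5.63, n = 3), 84.1-fold apart. The order between them was 3D-2D-2D, 2D, 2D-5days, the 3 kPa groups, 3D and 3D-5days, and the ranges of 2D and 2D-5days overlapped, as did those of neighbouring kPa groups and those of 3D and 3D-5days. Ctgf was also highest in 3D-2D, at 6421 CPM (SD 1561, n = 2), and lowest in 3D-5days, at 105 CPM (SD 22.2, n = 3), 61.0-fold apart. The 3 lowest groups for Ctgf were 3D-2D-3D, 3D and 3D-5days, with no overlap between neighbours.

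Nov moved over a narrower range than its relatives. It was highest in 3D-2D-2D, at 65.1 CPM (SD 1.56, n = 3), and lowest in 3D-5days, at 9.69 CPM (SD 1.25, n = 3), 6.72-fold apart. Only 3D-2D-2D stood clear of its neighbour in the order, and the other 8 neighbouring pairs of groups overlapped. Wisp1 was highest in 2D, at 402 CPM (SD 272, n = 3), with 3D-2D-2D next at 328 CPM (SD 1.51, n = 3) inside the range of 2D. The lowest Wisp1 levels were in 3D-2D-3D at 36.1 CPM (SD 3.01, n = 3), in 3D at 13.8 CPM (SD 2.16, n = 3) and in 3D-5days at 12.7 CPM (SD 1.67, n = 3), and the ranges of 3D and 3D-5days overlapped. Wisp2 was highest in 3D-2D-2D, at 2176 CPM (SD 47.3, n = 3), and lowest in 3D-2D-3D, at 27.5 CPM (SD 12.2, n = 3), 79.2-fold apart. In the order of Wisp2 levels, 3D-2D and 3D-2D-3D were the only neighbours that did not overlap.

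Cells held in 3D were first compared with cells in a flat layer. All 5 members were called lower in 3D (adjusted p under 0.05, edgeR's quasi-likelihood test with Benjamini-Hochberg adjustment over 14036 genes, as in all tests below), where 27.3% of all genes tested were called lower, 26.7% higher and 54% in either direction. Cyr61, which encodes a ligand of integrins, had 383, 355 and 22 CPM in 3D replicates 1, 2 and 3, against 1327, 1469 and 1336 CPM in 2D. Every 3D library lay below every 2D library, and 3D replicate 3 lay far below the other two. The log2 fold change was -2.44 ± 0.55 (SE, n = 3 each, adjusted p = 0.000823). In a fit of these 2 groups alone it was not called, either with the replicate number as a block (-3.06, adjusted p = 0.102) or without it (-2.43, adjusted p = 0.0863). Ctgf, a gene widely used as a readout of fibrosis, had 262, 262 and 245 CPM in 3D, against 2891, 3111 and 4500 CPM in 2D. The 3D libraries were close together and far below all 2D libraries, with a log2 fold change of -3.77 ± 0.33 (adjusted p = 4.71e-09).

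Nov had 10.1, 10.0 and 19.3 CPM in 3D, against 33.9, 31.3 and 13.0 CPM in 2D. The groups overlapped, and replicate 3 ran the other way from replicates 1 and 2. The log2 fold change was -0.97 ± 0.29 (adjusted p = 0.00776), and the call was lost without 2D replicate 1 (-0.73, adjusted p = 0.0571). A fit of these 2 groups alone did not call Nov either, with the replicate block (-0.95, adjusted p = 0.265) or without it (-0.98, adjusted p = 0.127). Wisp1, the member named for its induction by Wnt1, had 14.2, 15.8 and 11.5 CPM in 3D, against 574, 544 and 87.9 CPM in 2D. No libraries overlapped, although 2D replicate 3 was far below the other 2D libraries, and the log2 fold change of -4.86 ± 0.44 (adjusted p = 1.15e-08) was the largest of the family here. Wisp2, the member without the C-terminal module, had 104, 122 and 26.5 CPM in 3D, against 1120, 1137 and 103 CPM in 2D. Here 2D replicate 3 fell among the 3D libraries, and the log2 fold change was -3.22 ± 0.76 (adjusted p = 0.00123). With the most alike libraries of a group summed into 1, a setting chosen after seeing the data, neither Nov (-0.65, adjusted p = 0.315) nor Wisp2 (-3.16, adjusted p = 0.0823) was called. The 3 members whose libraries did not overlap stand beside 28.8% of all genes tested that were lower in 3D with no overlap.

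The 2 sets of libraries were then compared within themselves. In replicates 1 and 2 alone all 5 members were called lower, with log2 fold changes of -1.95 for Cyr61, -3.54 for Ctgf, -1.72 for Nov, -5.25 for Wisp1 and -3.34 for Wisp2. In replicate 3 alone, with 1 library per group and a spread taken from the other groups, 3 members were called lower. Cyr61 was at -5.91 (adjusted p = 5.91e-07), Ctgf at -4.18 (adjusted p = 5.27e-05) and Wisp1 at -2.92 (adjusted p = 2.8e-06). Wisp2 was at -1.94 (adjusted p = 0.138) and Nov at 0.59 (adjusted p = 0.175), neither called. Macrophage marker sums moved in opposite directions in these sets, higher in 3D than in 2D in replicates 1 and 2 and lower in 3D in replicate 3. Cyr61, Ctgf and Wisp1 were called lower in 3D in both sets. The 6 cardiomyocyte markers summed to between 66.7 and 207 CPM in 3D, against 10.1 to 24.9 CPM in 2D. The 7 epicardial and mesothelial markers summed to between 3.61 and 13.2 CPM in 3D, against 24.8 to 25.6 CPM in 2D. Singly, with all 3 replicates, 1 of 5 cardiomyocyte markers tested was called higher in 3D and 0 lower. Of 6 epicardial and mesothelial markers tested, 1 was called higher and 3 lower, and of 11 macrophage markers 3 higher and 0 lower. Over all genes tested 26.7% were called higher and 27.3% lower. The part of macrophages and other cell types in the direction or size of each member's difference was not tested.

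**Figure D2:**
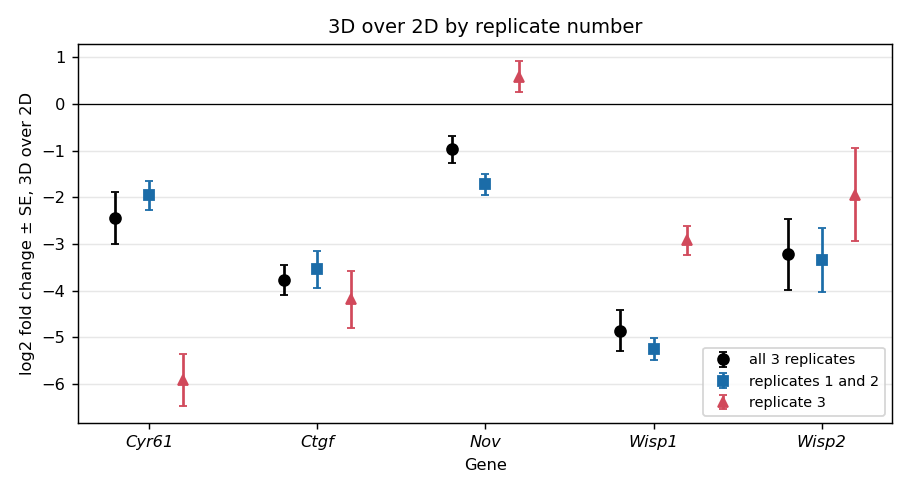
Log2 fold change ± SE of each CCN gene, 3D over 2D, from all 3 replicates, from replicates 1 and 2, and from replicate 3 alone. Ctgf differs least between the sets, Cyr61 is -1.95 in replicates 1 and 2 and -5.91 in replicate 3, and Nov lies on both sides of 0.

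At 5 days the same comparison of 3D with 2D was made in separate libraries. All 5 members were again called lower in 3D-5days, where 17.5% of all genes tested were called lower and 14.9% higher. None of the 5 overlapped between the groups, beside 21.1% of all genes that were lower with no overlap. Cyr61 had 133, 58.5 and 65.5 CPM in 3D-5days, against 1213, 1363 and 1381 CPM in 2D-5days, a log2 fold change of -3.95 ± 0.59 (adjusted p = 2.2e-05). Ctgf had 130.3, 88.2 and 97.0 CPM in 3D-5days, against 2388, 1586 and 1540 CPM in 2D-5days, a log2 fold change of -4.13 ± 0.33 (adjusted p = 3.18e-09). In both genes replicate 1 stood apart in 3D-5days, at the higher end, and replicates 2 and 3 were close.

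Nov had 11.1, 9.10 and 8.85 CPM in 3D-5days, against 30.1, 60.7 and 55.7 CPM in 2D-5days, and its log2 fold change was -2.33 ± 0.31 (adjusted p = 4.36e-06). Wisp1 had 10.8, 13.5 and 13.8 CPM in 3D-5days, against 168, 132 and 127 CPM in 2D-5days, a log2 fold change of -3.49 ± 0.42 (adjusted p = 1.51e-06). Wisp2 had 101, 305 and 332 CPM in 3D-5days, against 1134, 2407 and 2482 CPM in 2D-5days, a log2 fold change of -3.03 ± 0.75 (adjusted p = 0.00361). Wisp2 was lowest in replicate 1 of both groups. Macrophage marker sums were higher in 3D-5days, as given above. The 7 smooth muscle and pericyte markers summed to between 81.8 and 88.8 CPM in 3D-5days, against 346 to 424.5 CPM in 2D-5days, where Kcnj8 was at 0. The 7 epicardial and mesothelial markers summed to between 0.398 and 1.56 CPM in 3D-5days, where Msln, Upk3b and Upk1b were at 0, against 19.9 to 30.7 CPM in 2D-5days, where Krt8 and Krt18 were at 0. The 8 endothelial markers summed to between 59.9 and 109.8 CPM in 3D-5days, against 37.0 to 40.2 CPM in 2D-5days. Singly, 1 of the 7 smooth muscle and pericyte markers was called higher and 3 lower. Of 6 epicardial and mesothelial markers tested, 0 were called higher and 1 lower. Of 11 macrophage markers 3 were called higher and 0 lower, and of the 8 endothelial markers 5 higher and 0 lower. Over all genes tested 14.9% were called higher and 17.5% lower. The part of these cell types in the members' differences was not tested. All 5 calls stood in fits of these 2 groups alone, with and without the replicate block, and without each library in turn. With the most alike libraries summed, Wisp2 was no longer called (-3.10, adjusted p = 0.151).

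A contrast of the 2 differences tested whether 3D and 2D differed by the same amount at 5 days and where no time was stated. Nov was called, with a difference of -1.36 ± 0.42 on the log2 scale (adjusted p = 0.0198). In that direction 13.2% of all genes tested were called. Nov in 3D thus lay further below 2D at 5 days. Its mean was 48.84 CPM in 2D-5days against 26.05 CPM in 2D, and 9.69 CPM in 3D-5days against 13.14 CPM in 3D. The call was lost without 3D replicate 3 (-0.93, adjusted p = 0.0974) and without 2D-5days replicate 2 (-1.21, adjusted p = 0.0558). It was also lost in a fit of these 4 groups alone, with the replicate block (-1.34, adjusted p = 0.269) and without it (-1.36, adjusted p = 0.132). The other 4 members were not called, at -1.5 ± 0.75 for Cyr61 (adjusted p = 0.15), -0.36 ± 0.41 for Ctgf (adjusted p = 0.582), 1.38 ± 0.55 for Wisp1 (adjusted p = 0.0707) and 0.20 ± 0.99 for Wisp2 (adjusted p = 0.923). Cyr61 was called without 3D replicate 3 (-2.02, adjusted p = 0.000449) and Wisp1 without 2D replicate 3 (1.86, adjusted p = 2.74e-05). Against replicate 3 alone where no time was stated, Cyr61 was called in the other direction (1.97, adjusted p = 0.0112).

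**Figure D3:**
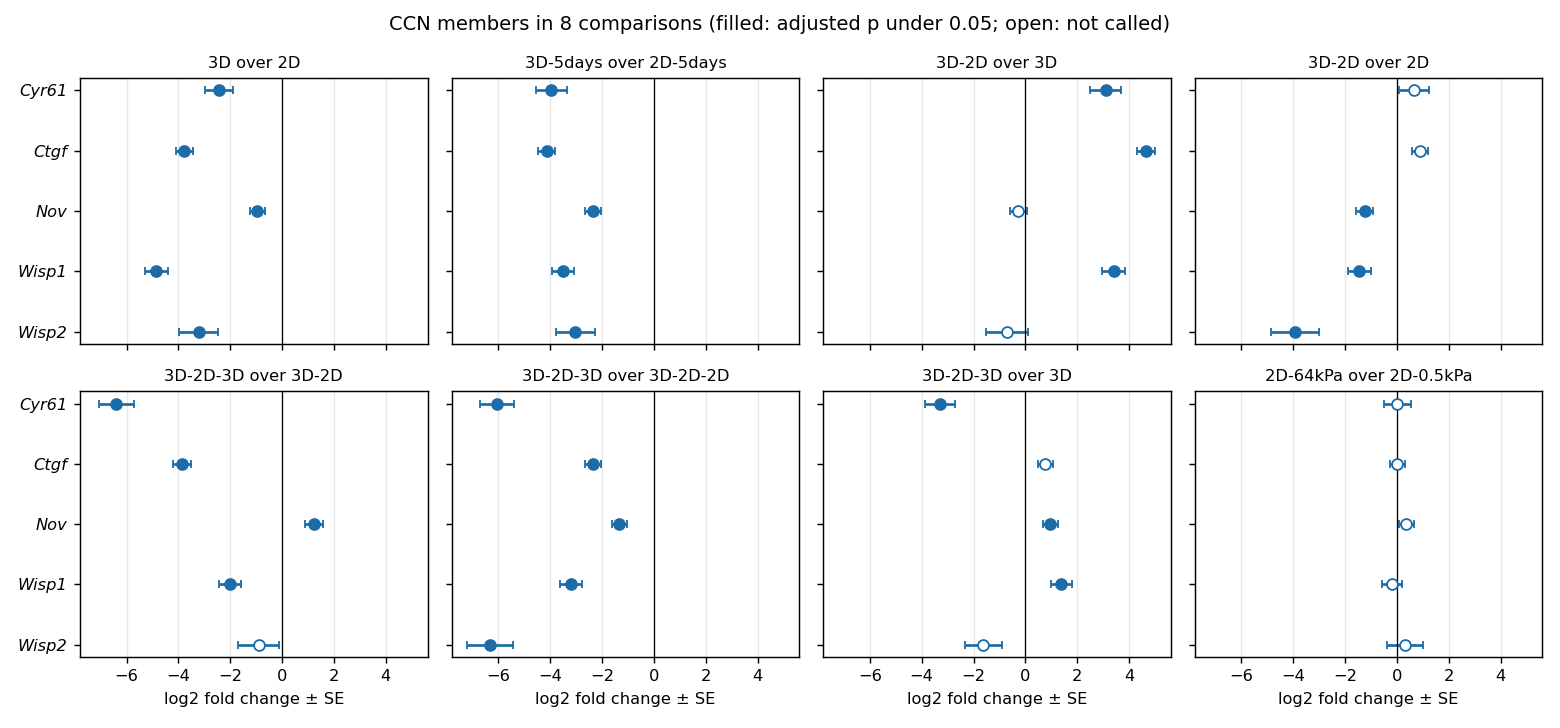
Log2 fold change ± SE of the 5 CCN genes in 8 comparisons, the group named first over the group named second; filled points are called at an adjusted p under 0.05. All 5 genes are called lower in 3D than 2D and in 3D-5days than 2D-5days, Cyr61, Ctgf and Wisp1 alone are called higher in 3D-2D than 3D, and no gene is called between substrates of 64 and 0.5 kPa.

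Comparisons that use the same group share its libraries and are not independent of each other. The next comparison followed the move of cells out of 3D into a flat layer. Cyr61, Ctgf and Wisp1 were called higher in 3D-2D than in 3D, and Nov and Wisp2 were not called, where 28.8% of all genes tested were called higher, 27.7% lower and 56.5% in either direction. Cyr61 had 1979 and 2371 CPM in 3D-2D, against 383, 355 and 22 CPM in 3D, a log2 fold change of 3.10 ± 0.60 (n = 2 and 3, adjusted p = 0.000161). Ctgf had 5318 and 7525 CPM in 3D-2D, against 262, 262 and 245 CPM in 3D, a log2 fold change of 4.65 ± 0.35 (adjusted p = 6.94e-10). Wisp1 had 126 and 166 CPM in 3D-2D, against 14.2, 15.8 and 11.5 CPM in 3D, a log2 fold change of 3.40 ± 0.43 (adjusted p = 1.24e-06). In these 3 genes every 3D-2D library lay above every 3D library, beside 36.8% of all genes that were higher with no overlap. With only these 2 groups in the fit, Cyr61 was not called (3.09, adjusted p = 0.0777).

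Nov and Wisp2 overlapped between the groups. Nov had 9.48 and 12.3 CPM in 3D-2D, against 10.1, 10.0 and 19.3 CPM in 3D, a log2 fold change of -0.28 ± 0.33 (adjusted p = 0.492). Wisp2 had 55.2 and 47.9 CPM in 3D-2D, against 104, 122 and 26.5 CPM in 3D, a log2 fold change of -0.71 ± 0.80 (adjusted p = 0.469). The 3D-2D libraries of Wisp2 lay between 3D replicates 1 and 2 above and 3D replicate 3 below. Against 3D replicate 3 alone, a single library assumed to vary like the other groups, Cyr61 was at 6.62, Ctgf at 4.70, Wisp1 at 3.66 and Wisp2 at 0.95. That library had Y-linked reads, unlike the 3D-2D libraries. Without it Cyr61 was at 2.56 (adjusted p = 7.75e-07), Ctgf at 4.62 (adjusted p = 2.32e-08) and Wisp1 at 3.29 (adjusted p = 2.04e-05). Nov was then at 0.12 (adjusted p = 0.77) and Wisp2 at -1.13 (adjusted p = 0.253). The 11 macrophage markers summed to 753 and 568 CPM in 3D-2D, below 3D replicates 1 and 2 and above 3D replicate 3, and their part in these differences was not tested.

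The 3D-2D libraries were also set against cells that had been flat throughout. Nov, Wisp1 and Wisp2 were called lower in 3D-2D than in 2D, where 7.54% of all genes tested were called lower and 14.4% in either direction. Nov had the 3D-2D levels given above, against 33.9, 31.3 and 13.0 CPM in 2D, with no overlap and a log2 fold change of -1.25 ± 0.34 (adjusted p = 0.0176). Wisp1, with 126 and 166 CPM in 3D-2D, lay between 2D replicate 3 and the other 2D libraries, at a log2 fold change of -1.46 ± 0.44 (adjusted p = 0.0291). Wisp2, with 55.2 and 47.9 CPM in 3D-2D, against 1120, 1137 and 103 CPM in 2D, was lower in every library, at a log2 fold change of -3.93 ± 0.94 (adjusted p = 0.00858). Each of the 3 calls was lost without 3D-2D replicate 1 and without 3D-2D replicate 2, where Wisp2 was at -4.06 (adjusted p = 0.076) and -3.83 (adjusted p = 0.143), and those of Nov and Wisp1 were also lost without 2D replicate 1 or 2D replicate 2. Cyr61 was at 0.66 ± 0.58 (adjusted p = 0.475) and Ctgf at 0.88 ± 0.32 (adjusted p = 0.0697), not called, although both 3D-2D libraries lay above all 2D libraries in both genes. Over all genes tested, 27.5% were higher and 24.7% lower in 3D-2D than in 2D with no overlap. Without 2D replicate 3, the 2D library with Y-linked reads, the 3 calls stood. Nov was at -1.58 (adjusted p = 0.000516), Wisp1 at -1.94 (adjusted p = 1.54e-06) and Wisp2 at -4.45 (adjusted p = 0.000642). Ctgf was called in that fit too (1.10, adjusted p = 0.03).

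A further step returned cells to 3D, and its libraries were compared with 3D-2D, the step before. Cyr61, Ctgf and Wisp1 were called lower in 3D-2D-3D, where 25% of all genes tested were called lower, and Nov was called higher, where 24.2% were. Cyr61 had 28.4, 29.8 and 19.4 CPM in 3D-2D-3D, against 1979 and 2371 CPM in 3D-2D, a log2 fold change of -6.39 ± 0.68 (adjusted p = 1.48e-07). Ctgf had 353, 354 and 605 CPM in 3D-2D-3D, against 5318 and 7525 CPM in 3D-2D, a log2 fold change of -3.87 ± 0.34 (adjusted p = 1.03e-08). Wisp1 had 38.3, 37.3 and 32.7 CPM in 3D-2D-3D, against 126 and 166 CPM in 3D-2D, a log2 fold change of -2.01 ± 0.41 (adjusted p = 0.000372). All 3 genes were lower in every 3D-2D-3D library, beside 38.5% of all genes that were lower with no overlap. Nov ran the other way, with 24.5, 24.3 and 28.2 CPM in 3D-2D-3D, against 9.48 and 12.3 CPM in 3D-2D, a log2 fold change of 1.23 ± 0.34 (adjusted p = 0.00416). Its call was lost without 3D-2D replicate 1 (1.04, adjusted p = 0.0715). Wisp2, with 34.5, 34.5 and 13.4 CPM in 3D-2D-3D, lay below both 3D-2D libraries but was not called (-0.91 ± 0.78, adjusted p = 0.349). Summing the most alike libraries lost the calls of Nov (1.28, adjusted p = 0.156) and Wisp1 (-2.03, adjusted p = 0.0745). The 8 endothelial markers summed to between 148 and 209.5 CPM in 3D-2D-3D, against 19.8 to 27.7 CPM in 3D-2D. Singly, 2 of them were called higher and 1 lower, with a median log2 fold change of 0.35. The 7 smooth muscle and pericyte markers summed to between 222 and 296 CPM in 3D-2D-3D, against 61.1 to 65.4 CPM in 3D-2D, where Kcnj8 was at 0. Of these 7, 2 were called higher and 2 lower, with a median of 1.06. The macrophage markers summed to between 209.7 and 228 CPM in 3D-2D-3D, against 568 and 753 CPM in 3D-2D, with 0 called. The part of these cell types in the differences was not tested.

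Set against cells that stayed flat for the third step, 3D-2D-3D cells had lower levels of every member. All 5 were called lower than in 3D-2D-2D, with no overlap, where 20.6% of all genes tested were called lower and 19.8% higher, and 32.4% were lower with no overlap. The 3D-2D-2D libraries were close together, with 1718, 1710 and 1681 CPM for Cyr61 and 2214, 2192 and 2123 CPM for Wisp2. Wisp2 differed by a log2 fold change of -6.31 ± 0.88 (adjusted p = 7.08e-06) and Cyr61 by -6.04 ± 0.65 (adjusted p = 2.56e-07). Ctgf had 2267, 2173 and 2157 CPM in 3D-2D-2D, and was lower in 3D-2D-3D by -2.33 ± 0.31 (adjusted p = 2.81e-06). Wisp1 had 328, 330 and 327 CPM in 3D-2D-2D, and was lower in 3D-2D-3D by -3.19 ± 0.41 (adjusted p = 2.21e-06). Nov had 64.8, 63.7 and 66.8 CPM in 3D-2D-2D, and was lower in 3D-2D-3D by -1.34 ± 0.29 (adjusted p = 0.000746). With 3D-2D-3D replicate 3 alone, the library whose Xist and Y-linked reads were both present as in 3D-2D-2D, Cyr61, Ctgf, Wisp1 and Wisp2 were called lower, and Nov was at -1.20 (adjusted p = 0.0635), in a fit that assumes that lone library to vary like the other groups. With the most alike libraries summed Nov was not called either (-1.32, adjusted p = 0.167). Nov in 3D-2D-3D thus lay above 3D-2D and below 3D-2D-2D. The summed fibroblast markers were also lower, between 15760 and 23080 CPM in 3D-2D-3D, against 65820 to 71800 CPM in 3D-2D-2D. The 8 endothelial markers summed to between 148 and 209.5 CPM in 3D-2D-3D, against 80.3 to 85.1 CPM in 3D-2D-2D. Most of them did not follow that sum: 1 was called higher and 3 lower, beside 19.8% and 20.6% of all genes, with a median log2 fold change of -1.14. The part of these cell types in the differences was not tested.

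Cells returned to 3D were lastly compared with cells that had been in 3D alone. Cyr61 was called lower in 3D-2D-3D, where 11.8% of all genes tested were called lower, and Nov and Wisp1 were called higher, where 11.2% were. Cyr61 had 28.4, 29.8 and 19.4 CPM in 3D-2D-3D, against 383, 355 and 22 CPM in 3D, at a log2 fold change of -3.29 ± 0.58 (adjusted p = 0.000403). The groups overlapped, with 3D replicate 3 inside the 3D-2D-3D range. Cyr61 was at -3.69 in replicates 1 and 2 and at -0.19 in replicate 3 (adjusted p = 0.945). In a fit of these 2 groups alone it was not called, with the replicate block (-2.68, adjusted p = 0.189) or without it (-3.34, adjusted p = 0.0823). In the same libraries macrophage markers summed to 217, 209.7 and 228 CPM in 3D-2D-3D, against 7631, 5371 and 200.2 CPM in 3D, and their part in this difference was not tested.

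Nov had 24.5, 24.3 and 28.2 CPM in 3D-2D-3D, against 10.1, 10.0 and 19.3 CPM in 3D, with no overlap and a log2 fold change of 0.96 ± 0.29 (adjusted p = 0.0195). It was not called without 3D replicate 1 (0.77, adjusted p = 0.119), without 3D replicate 2 (0.80, adjusted p = 0.105) or without 3D-2D-3D replicate 3 (0.86, adjusted p = 0.0697). In a fit of these 2 groups alone Nov was called with the replicate block (0.99, adjusted p = 0.0425) and not without it (0.93, adjusted p = 0.0762). Wisp1 had 38.3, 37.3 and 32.7 CPM in 3D-2D-3D, against 14.2, 15.8 and 11.5 CPM in 3D, with no overlap and a log2 fold change of 1.39 ± 0.39 (adjusted p = 0.0126). In replicates 1 and 2 alone Wisp1 was at 1.31 (adjusted p = 0.0603) and in replicate 3 alone at 1.5 (adjusted p = 0.466). Ctgf was at 0.77 ± 0.29 (adjusted p = 0.061), higher in every 3D-2D-3D library but not called. Over all genes tested, 20.3% were higher with no overlap. Wisp2 was at -1.62 ± 0.72 (adjusted p = 0.113), and it was called in a fit of these 2 groups with the replicate block (-1.51, adjusted p = 0.0273), though not without the block (-1.67, adjusted p = 0.143), and when the fit was made without 3D replicate 3 (-2.06, adjusted p = 0.0401). Over all genes 3227 of 14036 were called with every group in the fit, and in fits of these 2 groups alone 1587 were called with the replicate block and 1485 without it. Summing the most alike libraries left 59 genes and no member called.

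Substrates of 0.5, 8 and 64 kPa were compared to see whether stiffness under a flat culture changed the genes. No member was called in any of the 3 pairs, and 0% of all genes tested were called in each by edgeR. DESeq2 likewise called 0 genes in each pair. At an unadjusted p under 0.05 there were 82 genes between 8 and 0.5 kPa, 241 between 64 and 8 kPa and 175 between 64 and 0.5 kPa. Cyr61 had 636, 669.6 and 971 CPM at 0.5 kPa, 688, 655 and 900 CPM at 8 kPa, and 662, 639.7 and 1003 CPM at 64 kPa. Ctgf had 808, 1019 and 1437 CPM at 0.5 kPa, 959.8, 857 and 1342 CPM at 8 kPa, and 858, 726 and 1698 CPM at 64 kPa. Replicate 3 was the highest library of each substrate for both genes, and the 3 substrates overlapped. For 64 over 0.5 kPa the log2 fold change was 0.02 ± 0.52 for Cyr61 and 0.01 ± 0.29 for Ctgf (adjusted p = 1 for each).

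The ranges of the 3 substrates overlapped for the other members too. Nov had 18.7, 17.3 and 14.8 CPM at 0.5 kPa, 15.8, 18.8 and 15.4 CPM at 8 kPa, and 22.1, 25.6 and 17.2 CPM at 64 kPa. Wisp1 had 207, 216 and 172 CPM at 0.5 kPa, 254, 222 and 146 CPM at 8 kPa, and 194, 166 and 161 CPM at 64 kPa. Wisp2 had 780.5, 514 and 265 CPM at 0.5 kPa, 575, 580.1 and 191 CPM at 8 kPa, and 874, 826 and 243 CPM at 64 kPa. Replicate 3 was the lowest library of each substrate for all 3 genes. For 64 over 8 kPa, Nov was at 0.38 ± 0.29 and Wisp2 at 0.53 ± 0.70 without the block (adjusted p = 1 for each). With the replicate block both were called higher at 64 than at 8 kPa, Nov at 0.39 ± 0.10 (adjusted p = 0.0357) and Wisp2 at 0.50 ± 0.05 (adjusted p = 0.000178), in a fit of these 2 groups that called 608 genes. That block assumes that libraries pair by number, which the labels do not state. With the most alike libraries summed, Nov was at 0.34 and Wisp2 at 0.50 (adjusted p = 1 for each), and 0 genes were called. Macrophage markers summed to 2311, 2236 and 474 CPM at 64 kPa, against 1323, 1176 and 328 CPM at 8 kPa, and their part in these calls was not tested.

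The balance between members within a library, which does not depend on how libraries are scaled, also differed between groups. The log2 ratio of Ctgf to Cyr61 reads was 3.64, 3.57 and 4.96 in 3D-2D-3D, 1.43 and 1.67 in 3D-2D and 0.40, 0.35 and 0.36 in 3D-2D-2D. It was -0.55, -0.44 and 3.48 in 3D, against 1.12, 1.08 and 1.75 in 2D. Replicate 3 of 3D was thus near the 3D-2D-3D libraries in this ratio, and replicates 1 and 2 were the lowest of all 29 libraries. The log2 ratio of Wisp1 to Wisp2 reads was 1.19 and 1.79 in 3D-2D, against -0.97, -1.06 and -0.22 in 2D and -2.87, -2.96 and -1.20 in 3D. Both 3D-2D libraries lay above all libraries of 2D and of 3D. The ratio was -3.22, -4.50 and -4.59 in 3D-5days, against -2.75, -4.18 and -4.28 in 2D-5days, where replicate 1 was higher in both. These ratios were given no test.

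**Figure D4:**
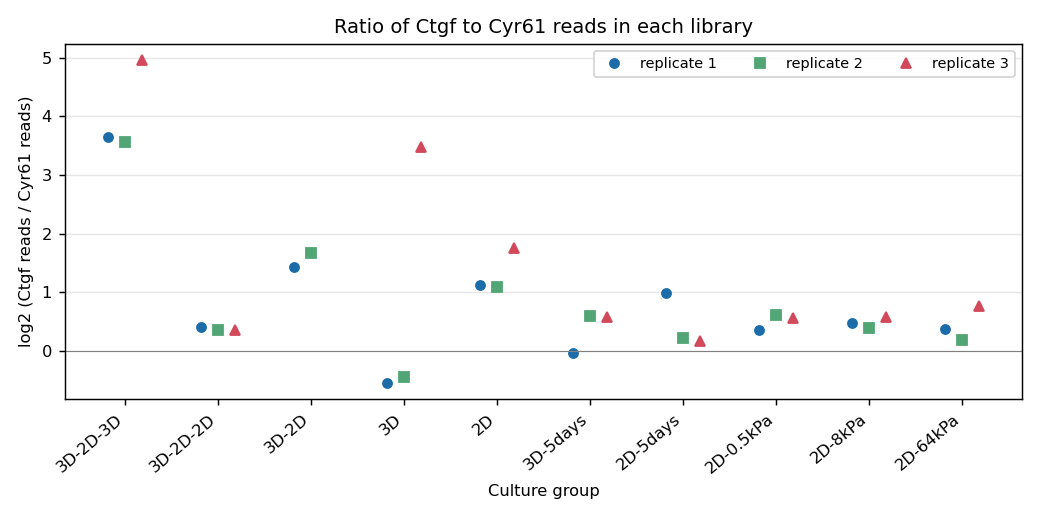
Log2 ratio of Ctgf to Cyr61 reads in each of 29 libraries, by culture group; symbols mark the replicate number. The 3D-2D-3D libraries lie between 3.57 and 4.96, 3D replicate 3 lies at 3.48, and 3D replicates 1 and 2 lie at -0.55 and -0.44.

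Other targets of YAP and TAZ were counted from a list of signature genes without the CCN genes. Of 20 tested, 10 were called lower and 3 higher in 3D than in 2D, with a median log2 fold change of -0.57, against 27.3% called lower, 26.7% called higher and a median of 0.03 over all genes. At 5 days 11 were called lower and 3 higher, with a median of -0.91, against 17.5% called lower, 14.9% called higher and a median of 0.00 over all genes. In 3D-2D with 3D, 9 were called higher and 3 lower, with a median of 0.63, against 28.8% called higher, 27.7% called lower and a median of -0.02 over all genes. Ankrd1, a nuclear protein induced by stretch, was at -6.67 ± 0.56 in 3D with 2D (adjusted p = 4.6e-09) and at -5.35 ± 0.54 at 5 days (adjusted p = 1.28e-07). Amotl2, a scaffold protein of cell junctions that binds YAP, was at -3.82 ± 0.18 (adjusted p = 4.33e-13) and -4.56 ± 0.19 (adjusted p = 8.66e-14) in the same comparisons. Crim1, a membrane protein that binds growth factors, was at -3.20 ± 0.16 (adjusted p = 7.98e-13) and -3.12 ± 0.16 (adjusted p = 1.75e-12). Each of the 3 was called higher in 3D-2D than in 3D, by 8.22 ± 0.61, 4.21 ± 0.19 and 3.63 ± 0.17 on the log2 scale. In 3D-2D-3D with 3D-2D the signature had 8 called lower and 3 higher, beside 25% and 24.2% of all genes, and with 3D-2D-2D it had 9 lower and 4 higher, beside 20.6% and 19.8%. The higher ones there included Nt5e, the ecto-nucleotidase CD73, at 4.06 ± 0.78 and 3.76 ± 0.66.

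Of 14 transcriptional regulators of CCN genes, 6 were called lower and 2 higher in 3D than in 2D, with a median log2 fold change of -0.25, against 27.3% called lower, 26.7% called higher and a median of 0.03 over all genes. Tead4 and Tead1, DNA-binding partners of YAP and TAZ, were at -3.24 ± 0.47 (adjusted p = 5.67e-06) and -2.26 ± 0.16 (adjusted p = 2.37e-10), and Srf, which drives early-response genes, was at -1.28 ± 0.18 (adjusted p = 4.09e-06). At 5 days 6 were called lower and 1 higher, beside 17.5% and 14.9% of all genes, with Tead4 at -2.81 ± 0.56, Tead1 at -2.54 ± 0.16 and Ctnnb1, which encodes beta-catenin, at 0.86 ± 0.16. In 3D-2D with 3D, 6 were called higher and 4 lower, beside 28.8% and 27.7% of all genes, with Tead4 at 4.06 ± 0.50 and Srf at 1.87 ± 0.20. In 3D-2D-3D with 3D-2D, 6 were called lower and 5 higher, beside 25% and 24.2% of all genes, and Tead4 was at -2.61 ± 0.45 and Srf at -2.19 ± 0.20. In 3D-2D-3D with 3D-2D-2D, where all 5 CCN genes were lower, 8 of the 14 were called higher and 3 lower, beside 19.8% and 20.6% of all genes. Wwtr1, which encodes TAZ, was among the higher ones, at 1.35 ± 0.17 (adjusted p = 2.05e-06), and Tead1 among the lower ones, at -1.67 ± 0.16 (adjusted p = 2.72e-08).

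Of the 6 genes of TGF-beta ligands and receptors, 4 were called higher and 1 lower in 3D than in 2D, with a median of 0.94, against 26.7% called higher, 27.3% called lower and a median of 0.03 over all genes. In fits of these 2 groups alone 4 in all were called without the replicate block and 3 with it. Tgfb1, a main fibrotic ligand, was at 1.54 ± 0.17 (adjusted p = 1.02e-07), the co-receptor Tgfbr3 at 1.58 ± 0.27 (adjusted p = 3.74e-05) and the ligand Tgfb2 at -1.75 ± 0.31 (adjusted p = 5.78e-05). At 5 days 4 were called higher and 2 lower, beside 14.9% and 17.5% of all genes, with Tgfb1 at 1.18 ± 0.17, Tgfb2 at -1.21 ± 0.31 and Tgfb3 at -1.36 ± 0.15. In 3D-2D with 3D, 4 were called lower and 0 higher, beside 27.7% and 28.8% of all genes. In 3D-2D-3D with 3D-2D, 5 were called higher and 1 lower, beside 24.2% and 25% of all genes. Tgfb1 was at -1.10 ± 0.19 in 3D-2D with 3D (adjusted p = 3.77e-05) and at 2.70 ± 0.20 in 3D-2D-3D with 3D-2D (adjusted p = 9.13e-10).

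Receptors and binding partners of CCN proteins moved in both directions. Of 16 tested, 7 were called higher and 7 lower in 3D than in 2D, beside 26.7% and 27.3% of all genes, and 6 higher and 7 lower at 5 days, beside 14.9% and 17.5%. Bmp4, a growth factor that Ctgf binds, was at -3.67 ± 0.35 in 3D with 2D (adjusted p = 1.61e-08) and -6.33 ± 0.39 at 5 days (adjusted p = 5.6e-11). Itgam and Itgb2, chains of an integrin of myeloid cells, were at 2.27 ± 0.92 (adjusted p = 0.0432) and 1.91 ± 0.73 (adjusted p = 0.033) in 3D with 2D, and at -2.86 and -1.87 in replicate 3 alone. The macrophage marker sums given above had the same directions, and the part of macrophages in these differences was not tested. In 3D-2D-3D the integrin chain Itgb3 was higher than in 3D-2D (3.05 ± 0.52), in 3D-2D-2D (4.62 ± 0.48) and in 3D (2.93 ± 0.44), which are 3 comparisons that share the 3D-2D-3D libraries.

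The genes whose levels followed each member most closely were found by Pearson's r of log2 CPM over the 29 libraries, among 9148 genes whose log2 CPM averaged 3 or more. The libraries share groups and origins, so these values describe likeness of pattern alone. Closest to Cyr61 were Anxa3 (r = 0.971), Pkmyt1 (0.952) and Atxn1 (0.944), and closest to Ctgf were Vcl (0.979), Strn3 (0.971) and Rras2 (0.969). Closest to Nov were Prelp (0.926), Myo10 (0.904) and Gpc4 (0.903), the lowest values of the 5 members. Closest to Wisp1 were Slc7a6 (0.965), Rnd3 (0.958) and Cdc42ep2 (0.957), and closest to Wisp2 were Ms4a4d (0.99), Tmem45a (0.978) and Grb14 (0.962). Between members, r was highest for Ctgf with Wisp1 (0.82) and for Cyr61 with Ctgf (0.80), and lowest for Cyr61 with Nov (0.29). These values differed between libraries of unlike origin. Ctgf with Wisp1 was at 0.84 in the 8 libraries with Xist and no more than a trace of Y-linked reads, at 0.90 in the 12 with both and at -0.50 in the 9 kPa libraries. Cyr61 with Ctgf was at 0.80, 0.82 and 0.97 in these sets, and Cyr61 with Nov at -0.24, 0.66 and -0.62. Within the kPa libraries, Cyr61 with Ctgf was at 0.97 and both were at -0.93 with Wisp2, where replicate 3 stood apart from replicates 1 and 2.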

How the data were processed

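RNA sequencing of 29 libraries was analysed from a table of raw counts, 1 line per gene symbol, deposited by the authors with no normalization. The submitters' processing notes name TopHat, HTSeq, Bowtie, MACS2 and the mm10 build, with no version and no role; no source used here gives the annotation or the strand setting. The table held 24421 genes and 5 summary lines, which were left out. Reads not uniquely aligned came to 14% to 28.4% of a library's total with the summary lines, reads outside genes to 4.84% to 10%, and ambiguous reads to 0.881% to 1.06%. Of the symbols, 25 had been turned into dates and 2 stood on more than 1 line; Nov kept its symbol. The counts carry no molecular identifiers, so reads are not independent molecules. The 2 ATAC-seq libraries were not analysed here.

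Counts were tested with edgeR 4.0.16 (limma 3.58.1, R 4.3.3): filterByExpr left 14036 genes, TMM factors ranged from 0.868 to 1.10, and 1 robust quasi-likelihood fit of all 29 libraries had 1 mean per group. P-values were adjusted by Benjamini-Hochberg over all genes of a comparison, and genes were called at 0.05. Standard errors came from the log2 fold change and the F statistic. CPM used effective library totals, and log2 CPM a prior count of 2. Positions and the promoter came from RefSeq (GRCm38.p6), in which all 5 members were matched by synonym. The procedure was tested on simulated counts. These held no split of replicate 3 from replicates 1 and 2, so that test does not cover it.

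The members, lists and comparisons were chosen with earlier results of these data known. The text names the 5 members, up to 3 called genes of a list with the largest change in a comparison (in part), and the 3 genes most like each member; other genes named only for marker sums or library origin are outside this rule. Replicate numbers were taken as pairs where deviations from the group means of same-numbered libraries correlated above 0.1 in every pair. This held for 3D with 2D (0.141, 0.23 and 0.232), 3D-2D-3D with 3D (0.196, 0.268 and 0.3), the 5-day groups (0.572, 0.288 and 0.337) and the kPa groups (0.191 to 0.753), from the data and not from the labels. Unlike numbers correlated as highly in places. Replicate 2 at 64 kPa was at 0.53 with replicate 1 at 0.5 kPa and at 0.191 with replicate 2. The rule therefore cannot show which of the alike libraries pair, and fits with the block assume that like numbers do. Alternatives were RLE factors, library totals, no filter, 1 CPM in 3 libraries, only the groups compared, with and without the block, and DESeq2 1.42.0. Each library was also left out in turn, and sets of libraries were taken by replicate number. The set of 3D-2D against 3D replicate 3 was of unlike origin in its Y-linked reads. Summing the most alike libraries (SD of log2 differences under 0.3) was added after seeing the data.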

Additional observations from a re-analysis of the deposited data

Results flagged for a closer look

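One value stood out by a test of a difference between groups. Nov in 3D lay further below 2D at 5 days than in the cultures with no stated time, by -1.36 ± 0.42 on the log2 scale (edgeR, adjusted p = 0.0198). It was lower in 3 of 3 libraries of 3D-5days. Its mean was 48.84 CPM in 2D-5days against 26.05 CPM in 2D, and 9.69 CPM in 3D-5days against 13.14 CPM in 3D. In the cultures with no stated time Nov was lower in 3D in replicates 1 and 2 and higher in replicate 3 (0.59 in replicate 3 alone, adjusted p = 0.175). The call was lost in a fit of these 4 groups alone, with the replicate block (-1.34, adjusted p = 0.269) and without it (-1.36, adjusted p = 0.132).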

How the results depend on the processing

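With RLE factors, library totals, no filter, the 1 CPM filter and DESeq2, 273 of 275 member values kept direction and call. Over all alternatives 716 of 820 did, 49 lost the call, 13 gained one and 42 turned. The cause was not tested. Both totals include the kPa pairs, where the main fit called no member. Some changes there were near 0, such as 0.02 for Cyr61 and 0.01 for Ctgf in 64 with 0.5 kPa. A direction kept or turned in those pairs says little about the calls elsewhere. Among the member values that kept their calls throughout were Ctgf and Wisp1 in 3D with 2D and in 3D-2D with 3D, and all but Wisp2 at 5 days. Cyr61 and Ctgf in 3D-2D-3D with 3D-2D or 3D-2D-2D, and Wisp1 in 3D-2D-3D with 3D-2D-2D, did so too. Scaling by totals put the all-gene median at 0.16 in 3D with 2D, -0.16 in 3D-2D with 3D, 0.22 in 3D-2D-3D with 3D-2D-2D and 0.13 at 5 days. They gave 71.5% of calls higher (49% with TMM) in 3D-2D-3D with 3D-2D-2D, 60.8% (46.1%) at 5 days and 38.4% (48.5%) in 3D-2D-3D with 3D. The shallowest values were 89 reads of Nov and 97 of Wisp1, each in a 3D-5days library, where counting error weighs most.

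With only the groups compared, 3 members were called in 3D with 2D, 0 in 3D-2D with 2D (523 genes), 1 in 3D-2D-3D with 3D (1485 genes) and 0 in the contrast of times (2156 genes), and 2991 genes at 5 days. With the replicate block as well, they were 3 in 3D with 2D, 5 in 3D-2D with 2D (6264 genes), 2 in 64 with 8 kPa (608 genes) and 0 in the contrast of times, with 1587 genes in 3D-2D-3D with 3D and 2 in 8 with 0.5 kPa. The block turned Nov to 0.10 in 3D-2D with 3D, Ctgf to -0.01 in 64 with 8 kPa and -0.05 in 64 with 0.5 kPa, and Wisp2 to -0.25 in the contrast of times. In the 4 comparisons with 3D-2D or 3D-2D-2D, like numbers did not meet the rule for pairs. The block gained calls of Wisp2 there, in 3D-2D with 3D (-1.14) and in 3D-2D-3D with 3D-2D (-0.58). The 3D-2D group held no replicate 3, so in its fits with the block replicate 3 of the other group added nothing to the difference. In the fit of all groups without 3D replicate 3, which had no block, Nov in 3D-2D with 3D was at 0.12 and Wisp2 at -1.13. DESeq2 called 2 members in the contrast of times.

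Replicate 3 alone called 3 members in 3D with 2D (4929 genes) and 0 in 3D-2D-3D with 3D (150 genes), fits with fewer libraries, and 3D-2D-3D replicate 3 left 3278 genes against 3D-2D-2D. Nov turned to 0.59, Itgam to -2.86 and Itgb2 to -1.87 in 3D with 2D, and Wisp2 to 0.95, Itgam to 1.89 and Itgb2 to 1.23 in 3D-2D with 3D. In the contrast of times Cyr61 was at 1.97, Ctgf at 0.07, Nov at -2.91, Wisp1 at -0.55 and Wisp2 at -1.07.

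With the most alike libraries summed, which leaves fewer samples, 3 members were called in 3D with 2D (4240 genes), 0 in 3D-2D with 2D (0 genes), 2 in 3D-2D-3D with 3D-2D (2839 genes), 0 in 3D-2D-3D with 3D (59 genes) and 0 in the contrast of times (307 genes). Genes called were 3516 in 3D-2D with 3D, 1042 in 3D-2D-3D with 3D-2D-2D and 1542 at 5 days.

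Leaving out 1 library, 8 over 0.5 kPa ranged from -0.17 to 0.19 for Cyr61, -0.25 to 0.20 for Ctgf, -0.12 to 0.05 for Nov, -0.11 to 0.27 for Wisp1 and -0.53 to 0.20 for Wisp2. For 64 over 0.5 kPa it was -0.22 to 0.22 for Cyr61, -0.46 to 0.25 for Ctgf and -0.01 to 0.73 for Wisp2, and for 64 over 8 kPa -0.21 to 0.18 for Cyr61 and -0.42 to 0.29 for Ctgf. Nov in 3D-2D with 3D ranged from -0.47 to 0.12 and Wisp2 in the contrast of times from -0.18 to 0.72. Members called ranged from 0 to 4 in 3D-2D with 2D (171 genes without 3D-2D replicate 2, 2947 without 2D replicate 3) and from 0 to 2 in the contrast of times, and genes called in 3D-2D-3D with 3D from 1991 without 3D replicate 1 to 4100 without 3D replicate 3.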
